A study of Homo sapiens with 9 samples.

Results

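The genes described here are 39 genes of glycolysis and of the response to low oxygen, chosen by symbol. All 39 were in the table of 35762 gene symbols, and 38 of them were among the 15345 genes with enough counts to be tested. The exception was the carbonic anhydrase gene CA12, which held 0 to 3 counts in any library. RNA was sequenced in TYUC-1, a single human cancer cell line labelled as neuroendocrine esophageal carcinoma and grown in suspension with serum. The cells had been exposed to EPZ-6438, an inhibitor of the histone methyltransferase EZH2, for 0, 3 or 6 days, with 3 libraries a day (n = 3). EPZ-6438 is the treatment given for all 9 libraries, day 0 included. The protocol names EPZ-6438 at 2 uM alongside DMSO and leaves unsaid whether the day 0 cells were given DMSO. No vehicle library of day 3 or day 6 was analysed here, so exposure to the inhibitor and time in culture cannot be told apart in any comparison.

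Glycolysis converts glucose to pyruvate through a series of cytosolic enzymes, and lactate dehydrogenase can then turn pyruvate into lactate. When oxygen is scarce, the prolyl hydroxylases encoded by the EGLN genes no longer mark the HIF alpha subunits for degradation, and HIF dimers bind DNA at a short core sequence and raise transcription of glycolytic enzymes, glucose transporters and angiogenic factors. HIF alpha subunits are controlled mainly at the protein level, which RNA does not measure, and many tumour cells run glycolysis at a high rate even when oxygen is present.

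Stretches before the RefSeq start of 6 of the genes are printed, to set matches to that core sequence beside how the genes moved. They come from the RefSeq promoter table of GRCh38.p14, which held 35 of the 39 genes (not VEGFA, BNIP3L, NDRG1 and SLC2A3). Each runs 5′ to 3′ on the strand of the gene and leaves out bases that GENCODE 29 annotates as exon. Capitals mark ACGTG or GCGTG, the hypoxia response element core, read on both strands. A match on the other strand appears as the reverse complement, CACGT or CACGC. A palindrome with the first core on each strand counts as 2 matches. By the GENCODE 29 bounds of the genes, only the BNIP3 stretch lies upstream of its whole gene. The stretches of PGK1, GAPDH, ANGPTL4, EPAS1 and EGLN3 lie within those bounds, before the start that RefSeq gives.
PGK1 is at chrX:78103998-78104173, plus strand, BNIP3 at chr10:131982014-131982173, minus strand, GAPDH at chr12:6535142-6535263, plus strand, ANGPTL4 at chr19:8363905-8364150, plus strand, EPAS1 at chr2:46297157-46297401, plus strand, and EGLN3 at chr14:33951082-33951324, minus strand.
PGK1: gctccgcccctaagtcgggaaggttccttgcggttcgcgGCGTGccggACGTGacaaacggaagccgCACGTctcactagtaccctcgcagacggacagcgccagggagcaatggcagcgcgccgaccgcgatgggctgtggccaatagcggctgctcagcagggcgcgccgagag
BNIP3: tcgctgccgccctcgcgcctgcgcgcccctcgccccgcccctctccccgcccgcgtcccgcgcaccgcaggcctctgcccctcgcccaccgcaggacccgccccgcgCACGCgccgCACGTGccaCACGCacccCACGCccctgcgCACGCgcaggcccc
GAPDH: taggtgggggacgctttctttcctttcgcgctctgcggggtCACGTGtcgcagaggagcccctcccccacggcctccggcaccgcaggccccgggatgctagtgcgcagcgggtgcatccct
ANGPTL4: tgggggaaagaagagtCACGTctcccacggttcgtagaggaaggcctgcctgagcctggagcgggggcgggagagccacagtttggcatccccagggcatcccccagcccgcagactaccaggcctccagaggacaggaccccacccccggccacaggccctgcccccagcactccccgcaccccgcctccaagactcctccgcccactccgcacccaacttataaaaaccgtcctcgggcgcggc
EPAS1: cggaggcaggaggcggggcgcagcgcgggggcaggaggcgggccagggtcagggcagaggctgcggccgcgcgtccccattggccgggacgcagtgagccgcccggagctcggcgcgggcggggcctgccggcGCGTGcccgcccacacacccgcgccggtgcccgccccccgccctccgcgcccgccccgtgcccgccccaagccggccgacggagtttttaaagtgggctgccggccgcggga
EGLN3: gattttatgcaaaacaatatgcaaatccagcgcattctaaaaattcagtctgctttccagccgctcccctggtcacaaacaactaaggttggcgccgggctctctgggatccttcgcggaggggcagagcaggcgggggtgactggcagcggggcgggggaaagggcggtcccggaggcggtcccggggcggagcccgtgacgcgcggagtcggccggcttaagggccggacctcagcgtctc
BNIP3 holds 6 matches, PGK1 holds 3, GAPDH holds 2, ANGPTL4 and EPAS1 hold 1 each, and EGLN3 holds none in these letters. EGLN3 and EPAS1 were among the members that moved most, and BNIP3 passed in none of the comparisons of the main fit. In some alternative fits given below, BNIP3 was called higher on day 6.

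Libraries held 21638874 to 31235055 estimated counts, and the members took 1.29% to 1.47% of them on day 0, 1.51% to 1.57% on day 3 and 1.88% to 2.12% on day 6. Libraries are named by day and replicate number (D0_2 for replicate 2 of day 0). D0_2 stood apart: its squared count differences from D0_1 and D0_3 averaged 55.4 and 47.6 times the sampling variance (chi-square per degree of freedom), against 4.94 between D0_1 and D0_3 and at most 16.2 within the other days. It had the highest day 0 level of 31 of the 38 tested members, with a median of 1.21 times the mean of the other 2 libraries, so results against day 0 are also given without it where they change. Of the labelled cell type's markers, CHGA was at 0 in all libraries and SYP averaged 5.85 CPM on day 0 and 6.07 CPM on day 6. NCAM1 averaged 6.26 CPM on day 0, 15.4 CPM on day 3 and 20.1 CPM on day 6, and CHGB, INSM1 and NEUROD1 averaged 1.30 to 5.32 CPM on each day. The 4 epithelial markers summed to 1270 to 1590 CPM over all libraries. Of other cell types, the 5 fibroblast markers summed to 0.751 to 1.13 CPM on day 0 and 9.72 to 11.5 on day 6, nearly all COL1A1, with LUM at 0 on day 0 and day 3. The 4 tuft cell markers summed to 416 to 425 CPM on day 0, 436 to 450 on day 3 and 297 to 323 on day 6. Of the 4, 3 were called lower on day 6 against day 0 (75%, against 25.7% of all genes). These were AVIL (log2 fold change -1.26 with SE 0.08 and adjusted p = 8.75e-08), TRPM5 (-0.65, adjusted p = 0.00522) and POU2F3 (-0.32, adjusted p = 0.00141). The 3 basal squamous markers summed to 0.978 to 1.21 CPM on day 0, 0.502 to 1.61 on day 3 and 5.75 to 7.54 on day 6. They were mostly KRT5 on day 0 and day 6, which was called lower on day 3 and 5.84-fold higher on day 6. Of the 2 basal squamous markers tested, the other was called higher on day 3 (log2 fold change 3.28) and on day 6 (2.87) against day 0. The 3 endothelial markers summed to at most 2.24 CPM, and the sum of the 5 leukocyte markers (486 to 640 CPM on day 0, 324 to 328 on day 6) was nearly all LYZ, with PTPRC below 1 CPM. The part of these differences in the results below was not tested.

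Most of the members had higher transcript levels on day 6 than on day 0, and the rise was already present for a smaller number on day 3. Levels are in CPM, counts scaled to a common library size by TMM, and a gene was called where the edgeR test over all 15345 genes gave an adjusted p under 0.05. On day 3 against day 0, 15 of 38 members were called higher (39.5%; 22.5% of all genes tested) and 1 lower (2.63%; 18.1% of all genes). On day 6 against day 0, 28 were called higher (73.7%; 28.9% of all genes) and 1 lower (2.63%; 25.7% of all genes). On day 6 against day 3, 19 were called higher (50%; 11.5% of all genes). None was called lower on day 6 against day 3 by edgeR, at an unadjusted p under 0.05, by DESeq2 or by limma-voom, where 4.76% of all genes were called. The median log2 fold change of the members was 0.21 on day 3 and 0.49 on day 6 against day 0, and 0.34 between day 3 and day 6, while the median of all genes was 0.0146, 0.0132 and -0.00125. The 3 comparisons share their libraries in pairs, so their values are given side by side and not as support for each other.

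The rises were mostly small. At least 2-fold rises were called for 5 members on day 3 (13.2%; 9.18% of all genes), 9 on day 6 against day 0 (23.7%; 14.9% of all genes) and 3 on day 6 against day 3 (7.89%; 6.32% of all genes). These shares are closer to those of all genes than the shares called at any size. All 3 day 6 libraries lay above all 3 day 0 libraries for 28 members (31.2% of all genes), and above all 3 day 3 libraries for 31 members (22.8% of all genes). Day 3 lay wholly above day 0 for 18 members (28.8% of all genes). Without D0_2 the members called higher were 21 on day 3 (25.1% of all genes), 31 on day 6 against day 0 (31.7%) and 30 on day 6 against day 3 (16.6%), with medians of 0.29, 0.53 and 0.33. The calls of day 6 against day 3 that were gained without D0_2 and are not given with the gene were those of CA9, EGLN1, P4HA2, PFKL, ALDOA, TPI1 and PKM (adjusted p from 0.0057 to 0.0359). Since RNA came from whole cultures, fewer cells of a kind and less RNA per cell cannot be told apart. The p-values measure the spread between these libraries, which are called biological replicates with no word on separate cultures.

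**Figure D1:**
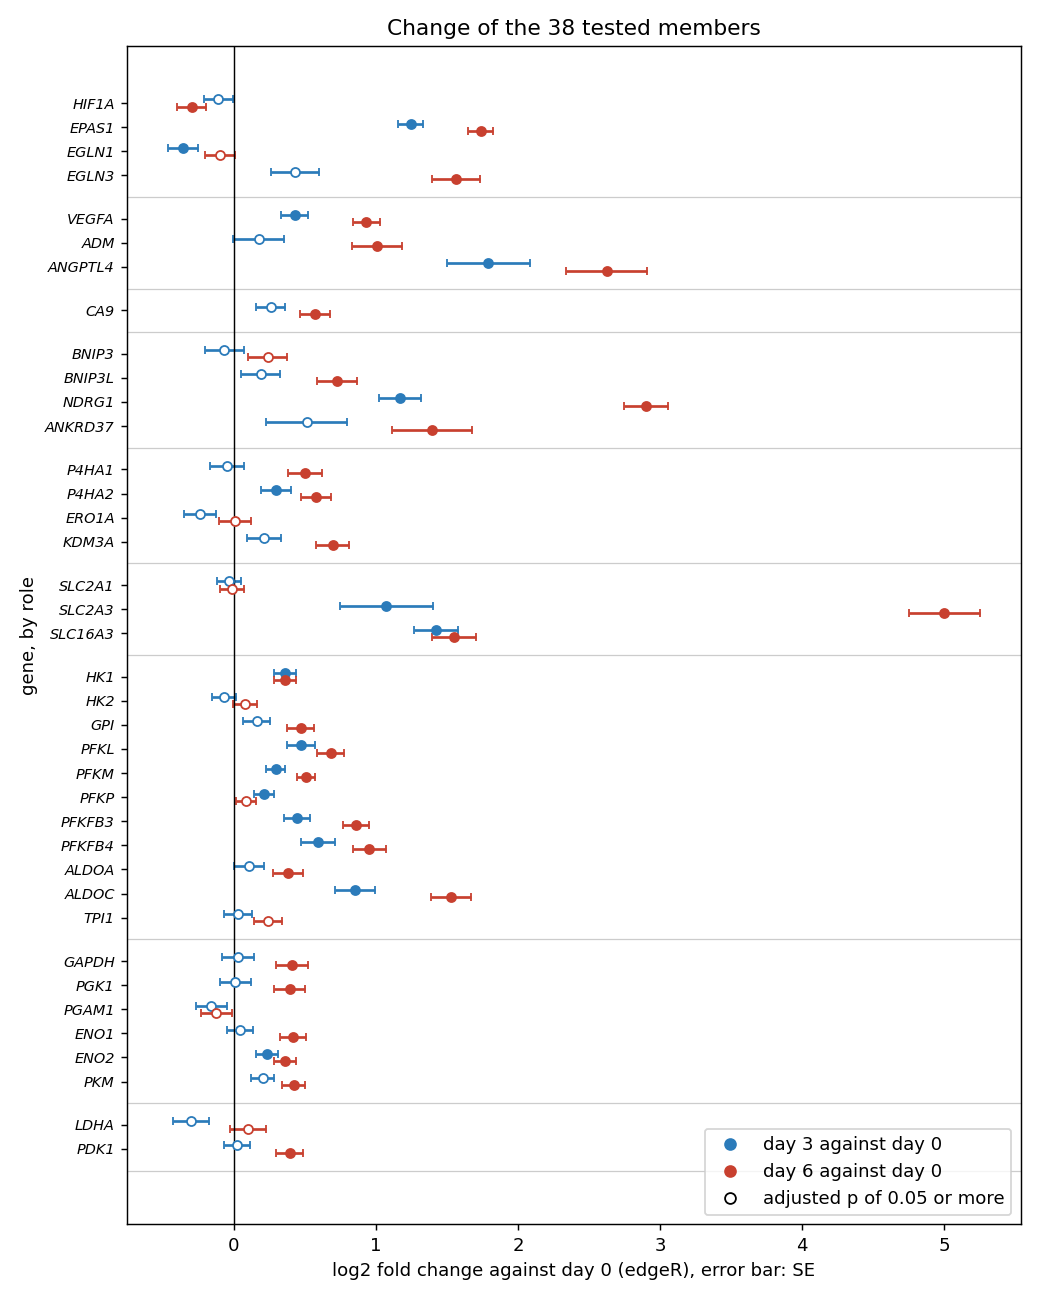
Log2 fold change against day 0 (x axis) for the 38 tested members, grouped by role (y axis), with the edgeR standard error as the bar. Blue is day 3 and red day 6, and open circles did not pass the test; most red points lie between 0 and 1, with SLC2A3, NDRG1 and ANGPTL4 the farthest to the right.

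Among the genes of oxygen sensing, the HIF alpha subunit EPAS1 (HIF-2 alpha) rose while HIF1A (HIF-1 alpha) did not. EPAS1 was at 15.6, 16.1 and 17.8 CPM on day 0, 38.3, 39.6 and 39.4 CPM on day 3, and 50.4, 53.9 and 60.8 CPM on day 6. The 3 libraries of each day were close together and the days did not overlap. EPAS1 rose on day 3 (log2 fold change 1.25 with SE 0.09 and adjusted p = 1.79e-06) and further by day 6 (log2 fold change 1.74 with SE 0.09 and adjusted p = 2.61e-08, or 3.34-fold). The day 6 level was also higher than that of day 3 (log2 fold change 0.49 with SE 0.08 and adjusted p = 0.00162). HIF1A was at 325, 364 and 277 CPM on day 0, 307, 301 and 288 CPM on day 3, and 271, 278 and 237 CPM on day 6. Its highest value was that of D0_2, and day 6 overlapped day 0 because D6_2 lay above D0_3. HIF1A was the 1 member called lower on day 6 (log2 fold change -0.30 with SE 0.10 and adjusted p = 0.026). That call was lost without D0_1 (adjusted p = 0.0532) or D6_3 (0.0937), and after removal of a trend with GC content and transcript length (GC correction below) its log2 fold change was -0.04 (adjusted p = 0.535). On day 3 its log2 fold change was -0.11 and did not pass.

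The prolyl hydroxylase genes also differed from each other. EGLN3, itself a known HIF target, was at 30.6, 53.8 and 38.4 CPM on day 0, 52.8, 55.2 and 57.3 CPM on day 3, and 102, 128 and 133 CPM on day 6. All day 6 libraries lay above every earlier one, and the day 3 values lay around that of D0_2. EGLN3 rose by day 6 against day 0 (log2 fold change 1.56 with SE 0.17 and adjusted p = 1.3e-05) and against day 3 (log2 fold change 1.13 with SE 0.17 and adjusted p = 0.000587). On day 3 it did not pass (log2 fold change 0.43 with SE 0.17 and adjusted p = 0.0601), whereas without D0_2 it did (log2 fold change 0.68, adjusted p = 0.000333). It also passed on day 3 after GC correction (log2 fold change 0.50, adjusted p = 0.0276). EGLN1, which encodes the main oxygen sensor PHD2, was at 88.8, 117 and 91.9 CPM on day 0, 78.3, 76.6 and 77 CPM on day 3, and 84.6, 99.2 and 94.1 CPM on day 6. Day 3 lay below all libraries of the other days. EGLN1 was the 1 member called lower on day 3 (log2 fold change -0.36 with SE 0.10 and adjusted p = 0.0165), a call lost without D3_2 (adjusted p = 0.0555) or D3_3 (0.0504), and on day 6 it did not differ beyond its spread (log2 fold change -0.10 with SE 0.10 and adjusted p = 0.448).

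Ratios taken within a library do not depend on how libraries are scaled. Per kilobase of median transcript, EPAS1 stood at 0.0396 ± 0.00808 of the HIF1A level on day 0, 0.0995 ± 0.00451 on day 3 and 0.161 ± 0.0291 on day 6, so HIF1A remained the more abundant of the pair. The ratio of EGLN3 to EGLN1 went from 1.07 ± 0.153 to 1.87 ± 0.0936 and 3.41 ± 0.274. For both ratios all 3 libraries of each day lay above those of the day before. With 3 libraries against 3, the exact two-sided permutation test cannot go below p = 0.1, which was the p of each of these comparisons (0.122 after Benjamini-Hochberg adjustment over 33 comparisons of 11 ratios), so no ratio can pass a threshold of 0.05.

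**Figure D2:**
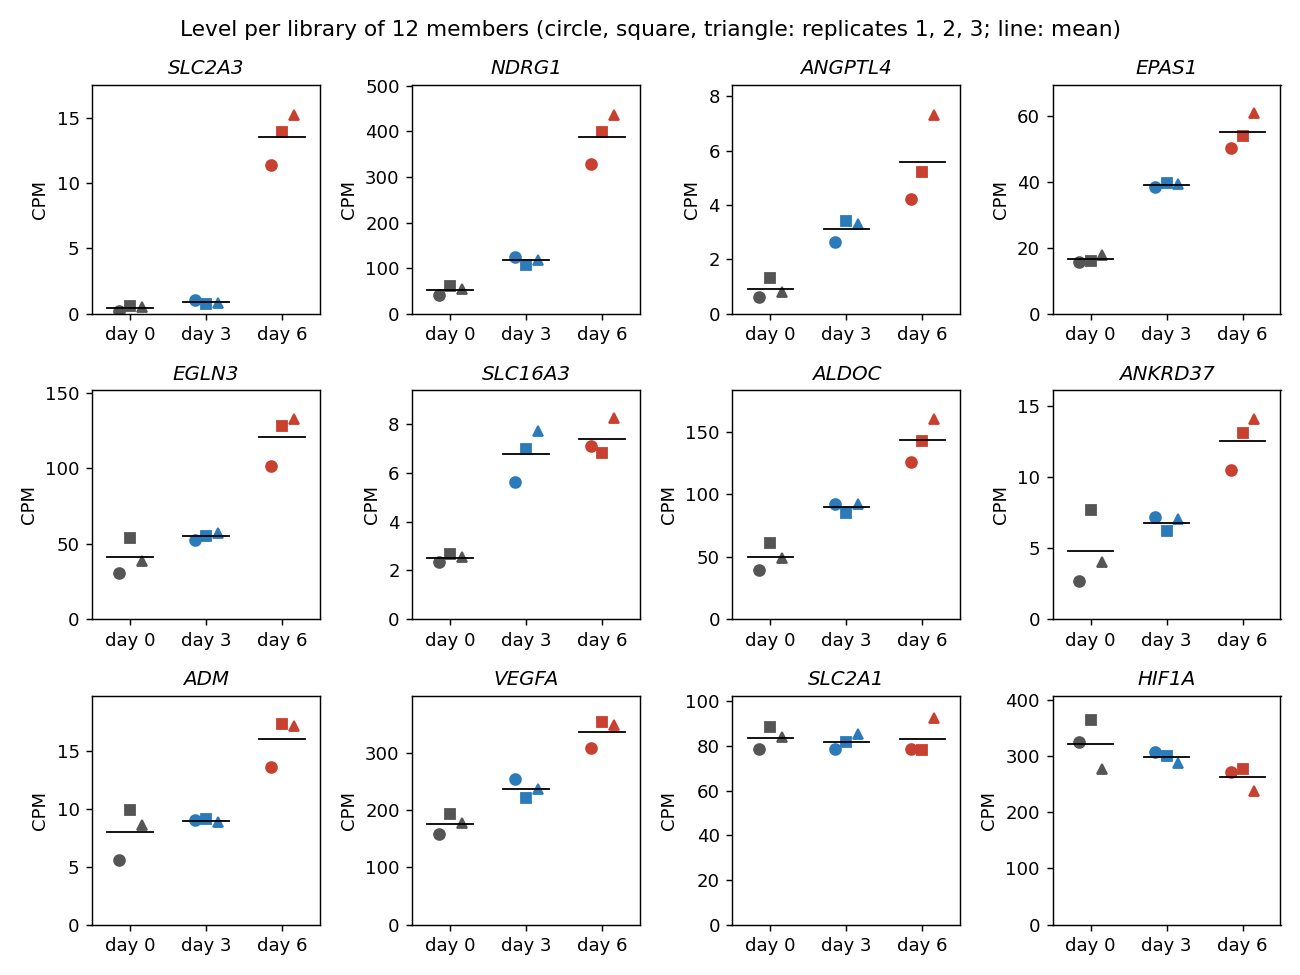
Level in CPM (y axis, from 0) in each of the 9 libraries for 12 members, by day (x axis), with a line at the mean of each day. In EPAS1 and ALDOC the days separate in order, SLC2A3, EGLN3, ADM and ANKRD37 separate mainly on day 6, SLC16A3 stands at about its day 6 level from day 3, and the days of SLC2A1 overlap.

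The secreted HIF targets rose in all 3 cases by day 6 (100%, against 28.9% of all genes). VEGFA, the main angiogenic growth factor, was at 158, 194 and 178 CPM on day 0, 255, 221 and 237 CPM on day 3, and 308, 353 and 349 CPM on day 6. Each day lay wholly above the one before. VEGFA rose on day 3 (log2 fold change 0.43 with SE 0.09 and adjusted p = 0.00391) and on day 6 (log2 fold change 0.93 with SE 0.09 and adjusted p = 7.52e-06), and was higher on day 6 than on day 3 (log2 fold change 0.50 with SE 0.09 and adjusted p = 0.00292). The day 3 call was lost after GC correction (log2 fold change 0.19, adjusted p = 0.0843). ANGPTL4, an inhibitor of lipoprotein lipase, was low throughout, at 0.621, 1.32 and 0.799 CPM on day 0, 2.65, 3.41 and 3.31 CPM on day 3, and 4.24, 5.22 and 7.32 CPM on day 6. It rose 3.46-fold on day 3 (log2 fold change 1.79 with SE 0.29 and adjusted p = 0.000647) and 6.17-fold by day 6 (log2 fold change 2.62 with SE 0.28 and adjusted p = 1.27e-05). Its further rise from day 3 to day 6 (log2 fold change 0.83 with SE 0.24 and adjusted p = 0.0367) no longer passed without any 1 of D3_1, D3_2, D3_3, D6_2 and D6_3 (adjusted p from 0.0827 to 0.174). ADM, which encodes the vasodilator peptide adrenomedullin, was at 5.59, 9.87 and 8.56 CPM on day 0, 8.98, 9.07 and 8.83 CPM on day 3, and 13.6, 17.3 and 17.1 CPM on day 6. It did not pass on day 3 (log2 fold change 0.18 with SE 0.18 and adjusted p = 0.462) and rose by day 6 (log2 fold change 1.01 with SE 0.17 and adjusted p = 0.000436). The change from day 3 to day 6 also passed (log2 fold change 0.83 with SE 0.17 and adjusted p = 0.00539).

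CA9, the cell surface carbonic anhydrase that helps cells export acid, was already abundant on day 0. Its levels were 542, 683 and 592 CPM on day 0, 711, 718 and 746 CPM on day 3, and 829, 853 and 1019 CPM on day 6. The days followed each other without overlap. CA9 rose by day 6 against day 0 (log2 fold change 0.57 with SE 0.10 and adjusted p = 0.000606), and after GC correction this log2 fold change was 0.31 and still passed (adjusted p = 0.00292). On day 3 it did not pass (log2 fold change 0.26 with SE 0.10 and adjusted p = 0.0642), though it did without D0_2 (log2 fold change 0.35, adjusted p = 0.00356) or D6_3 (adjusted p = 0.0494). CA12, a related surface enzyme, was not tested, with 0 to 3 counts in each library.

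NDRG1, a stress response gene induced by low oxygen, had the second largest rise of the members. It was at 39.9, 61.2 and 54.9 CPM on day 0, 125, 107 and 119 CPM on day 3, and 329.7, 399.8 and 437 CPM on day 6. The day 6 libraries lay far above all others, and day 3 lay wholly above day 0. NDRG1 rose 2.25-fold by day 3 (log2 fold change 1.17 with SE 0.15 and adjusted p = 0.000118), 7.48-fold by day 6 (log2 fold change 2.90 with SE 0.16 and adjusted p = 3.86e-08) and 3.33-fold between day 3 and day 6 (log2 fold change 1.74 with SE 0.15 and adjusted p = 9.04e-06). ANKRD37, an ankyrin repeat gene known as a HIF target, was at 2.68, 7.7 and 4.04 CPM on day 0, 7.16, 6.19 and 7.0 CPM on day 3, and 10.5, 13.1 and 14 CPM on day 6. Its day 0 libraries spread most, and D0_2 lay above all of day 3. It rose by day 6 (log2 fold change 1.39 with SE 0.28 and adjusted p = 0.00122) and did not pass on day 3 (log2 fold change 0.51 with SE 0.29 and adjusted p = 0.176), whereas it did without D0_2 (log2 fold change 1.04, adjusted p = 0.000411). Its rise from day 3 to day 6 (log2 fold change 0.88 with SE 0.27 and adjusted p = 0.0441) no longer passed without any 1 library of those days (adjusted p from 0.0577 to 0.157).

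The mitophagy receptors BNIP3 and BNIP3L, which mark mitochondria for removal, behaved differently in the test. BNIP3L was at 100, 157 and 116 CPM on day 0, 147, 138 and 139.9 CPM on day 3, and 185, 228 and 204 CPM on day 6. Day 6 lay above every earlier library, and D0_2 lay above all of day 3. BNIP3L rose by day 6 (log2 fold change 0.73 with SE 0.14 and adjusted p = 0.000911). After GC correction its log2 fold change on day 6 was 1.101 (adjusted p = 2.07e-06). BNIP3L did not pass on day 3 (log2 fold change 0.19 with SE 0.14 and adjusted p = 0.302), though it did without D0_2 (adjusted p = 0.00205) and after GC correction (log2 fold change 0.47, adjusted p = 0.00212). From day 3 to day 6 it rose (log2 fold change 0.54 with SE 0.14 and adjusted p = 0.0198), a call lost without D3_1, D3_2, D3_3, D6_2 or D6_3 (adjusted p from 0.0546 to 0.0973). BNIP3 was at 69.7, 113 and 81.4 CPM on day 0, 84.2, 82 and 85.6 CPM on day 3, and 98.6, 109.7 and 103 CPM on day 6. D0_2 was its highest library of all 9, and no comparison passed. After GC correction BNIP3 was called higher on day 6 than on day 0 (log2 fold change 0.42, adjusted p = 0.0108). Without D0_2, it was higher on day 6 than on day 0 (log2 fold change 0.45, adjusted p = 9.99e-05) and than on day 3 (log2 fold change 0.30, adjusted p = 0.00274). The ratio of BNIP3L to BNIP3 per kilobase went from 3.57 ± 0.0597 to 4.26 ± 0.141 and 4.99 ± 0.259 without overlap between days (exact permutation p = 0.1 for each pair of days).

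Of the oxygen-using enzymes and their partners, 3 of 4 rose by day 6 (75%, against 28.9% of all genes). P4HA1 and P4HA2 encode the catalytic subunits of collagen prolyl hydroxylase. P4HA1 was at 58.6, 84.9 and 71.5 CPM on day 0, 71.5, 69.4 and 66.8 CPM on day 3, and 94.7, 112 and 97 CPM on day 6. It moved between day 3 and day 6 (log2 fold change 0.55 with SE 0.12 and adjusted p = 0.00728) and was higher on day 6 than on day 0 (log2 fold change 0.50 with SE 0.12 and adjusted p = 0.00366), with a log2 fold change of -0.05 on day 3. The day 6 value against day 0 was larger after GC correction (log2 fold change 0.78, adjusted p = 2.39e-05). P4HA2 averaged 15.1 ± 1.84 CPM on day 0, 18.6 ± 0.319 on day 3 and 22.6 ± 2.23 on day 6 and rose by day 6 (log2 fold change 0.58 with SE 0.10 and adjusted p = 0.000605). Its day 3 call (log2 fold change 0.30 with SE 0.11 and adjusted p = 0.04) was lost without D0_1, D0_3, D3_1, D3_2, D3_3 or D6_3 (adjusted p from 0.0556 to 0.141) and after GC correction (log2 fold change 0.24, adjusted p = 0.0723). KDM3A, a histone demethylase, was at 44.8, 58.9 and 47.2 CPM on day 0, 59.1, 58 and 57.6 CPM on day 3, and 68.6, 91.5 and 84 CPM on day 6. It did not pass on day 3 (log2 fold change 0.21 with SE 0.12 and adjusted p = 0.176), though it did without D0_2 (log2 fold change 0.34, adjusted p = 0.0103). KDM3A rose by day 6 (log2 fold change 0.69 with SE 0.12 and adjusted p = 0.000406), and its rise from day 3 (log2 fold change 0.48 with SE 0.12 and adjusted p = 0.0148) no longer passed without D3_1, D3_2, D3_3, D6_2 or D6_3 (adjusted p from 0.0502 to 0.0766). ERO1A, an oxidase of disulfide bond formation, averaged 272 ± 47.9 CPM on day 0, 230.5 ± 4.75 on day 3 and 274 ± 24.1 on day 6 and passed in no comparison, though without D0_1 it was lower on day 3 (adjusted p = 0.0389) and without D0_2 higher on day 6 than on day 3 (log2 fold change 0.25, adjusted p = 0.00734).

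The glucose transporter genes gave the widest contrast among the members. SLC2A3, which encodes the high-affinity transporter GLUT3, was at 0.229, 0.553 and 0.517 CPM on day 0, 1.08, 0.736 and 0.826 CPM on day 3, and 11.4, 13.9 and 15.2 CPM on day 6. It was near the limit of detection on day 0, with 7 to 13 counts a library, and the 3 day 6 libraries lay more than an order of magnitude higher. It rose 32-fold by day 6 (log2 fold change 5.0 with SE 0.25 and adjusted p = 2.16e-08), the largest rise of the members, and 15.2-fold from day 3 (log2 fold change 3.93 with SE 0.22 and adjusted p = 5.19e-07). The day 3 rise (log2 fold change 1.07 with SE 0.33 and adjusted p = 0.0208) no longer passed without D0_1 (adjusted p = 0.0863) or D3_1 (0.0824). SLC2A14, a near-identical copy of SLC2A3, held 1 to 7 counts in each library, and reads could have been split between them. SLC2A1, which encodes the widespread transporter GLUT1, was at 78.7, 88.5 and 83.8 CPM on day 0, 78.5, 81.8 and 85.3 CPM on day 3, and 78.6, 78.1 and 92.3 CPM on day 6. Its days overlapped, and no comparison passed (log2 fold change -0.01 with SE 0.08 and adjusted p = 0.92 on day 6 against day 0). It was lower after GC correction on day 3 (log2 fold change -0.18, adjusted p = 0.0312) and on day 6 (-0.20, adjusted p = 0.0163).

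Per kilobase, SLC2A3 stood at 0.00275 ± 0.00103 of SLC2A1 on day 0, 0.00582 ± 0.00139 on day 3 and 0.0873 ± 0.00884 on day 6. The ratio thus rose 33.5-fold from day 0 to day 6 (exact permutation p = 0.1), and SLC2A1 remained the more abundant transcript. SLC16A3, which encodes the lactate exporter MCT4, was at 2.35, 2.68 and 2.54 CPM on day 0, 5.63, 6.96 and 7.7 CPM on day 3, and 7.1, 6.81 and 8.23 CPM on day 6. Day 3 and day 6 overlapped and both lay above day 0. It rose on day 3 (log2 fold change 1.42 with SE 0.15 and adjusted p = 3.37e-05) and was 2.93-fold the day 0 level on day 6 (log2 fold change 1.55 with SE 0.15 and adjusted p = 5.61e-06), with no call between day 3 and day 6 (log2 fold change 0.13 with SE 0.14 and adjusted p = 0.612). SLC16A1, a gene of the same family outside the members, was more abundant, averaging 167 CPM on day 0, 122 on day 3 and 144 on day 6. In the main fit SLC16A1 was called lower on day 3 (log2 fold change -0.45 with SE 0.08 and adjusted p = 0.00127). On day 6 it was also called lower than on day 0 (log2 fold change -0.21 with SE 0.08 and adjusted p = 0.0449).

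**Figure D3:**
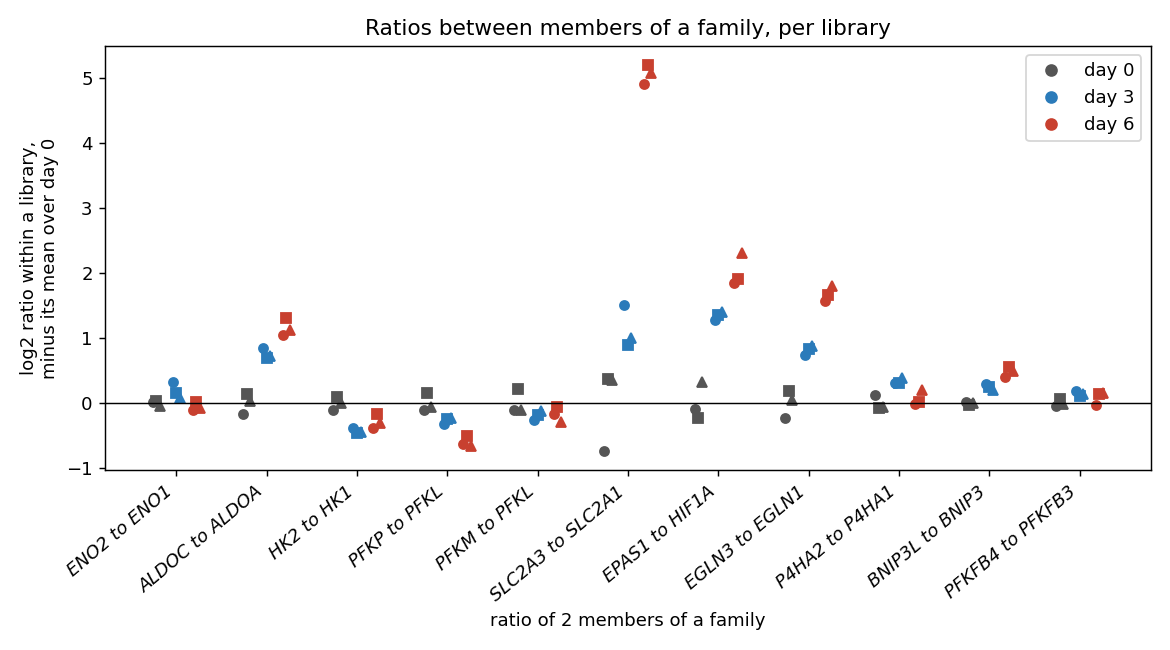
Log2 ratio of 2 genes of a family within each library (y axis), minus its mean over day 0, for 11 ratios (x axis). Circle, square and triangle are replicates 1, 2 and 3; SLC2A3 to SLC2A1 moves by about 5 on day 6, EPAS1 to HIF1A by about 2, and the ratios of HK2 to HK1 and PFKP to PFKL lie below 0 on day 3 and day 6.

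Of the 11 genes of upper glycolysis, 7 were called higher on day 3 (63.6%; 22.5% of all genes), 8 on day 6 against day 0 (72.7%; 28.9% of all genes) and 4 on day 6 against day 3 (36.4%; 11.5% of all genes). ALDOC, the brain-type aldolase and a HIF target, was the only one past 2-fold on day 6. It was at 39.3, 61.1 and 49 CPM on day 0, 92.2, 85.4 and 92.1 CPM on day 3, and 126, 143 and 161 CPM on day 6. The days lay in order without overlap. ALDOC rose 1.81-fold on day 3 (log2 fold change 0.85 with SE 0.14 and adjusted p = 0.000631) and 2.88-fold by day 6 (log2 fold change 1.53 with SE 0.14 and adjusted p = 3.33e-06). Its paralog ALDOA, the most abundant aldolase gene, averaged 944 ± 107 CPM on day 0, 1017 ± 42 on day 3 and 1228 ± 158 on day 6. ALDOA was called higher on day 6 (log2 fold change 0.38 with SE 0.11 and adjusted p = 0.0101), a call lost without D6_3 (adjusted p = 0.0614) and after GC correction (log2 fold change 0.10, adjusted p = 0.272). Per kilobase ALDOC was 0.0471 ± 0.00518 of ALDOA on day 0 and 0.105 ± 0.00989 on day 6.

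PFKFB3 and PFKFB4, which encode regulators that make fructose 2,6-bisphosphate, an activator of phosphofructokinase, both rose. PFKFB2, a related gene outside the members, was called in no comparison of the main fit. Its log2 fold changes were 0.19 on day 3 (adjusted p = 0.207) and 0.10 on day 6 (adjusted p = 0.492) against day 0. PFKFB3 was at 71.1, 79.1 and 88.4 CPM on day 0, 109.9, 109 and 106 CPM on day 3, and 131, 149 and 154 CPM on day 6. Each day lay above the one before. PFKFB3 rose on day 3 (log2 fold change 0.45 with SE 0.09 and adjusted p = 0.00254) and on day 6 (log2 fold change 0.86 with SE 0.09 and adjusted p = 1.1e-05), and the day 3 call was lost after GC correction (log2 fold change 0.18, adjusted p = 0.101), while that of day 6 was kept (log2 fold change 0.56, adjusted p = 0.000137). PFKFB4 was at 24.6, 29.5 and 31.3 CPM on day 0, 44.5, 42 and 41.8 CPM on day 3, and 45.5, 58.3 and 61.4 CPM on day 6. It rose on day 3 (log2 fold change 0.59 with SE 0.12 and adjusted p = 0.00231) and on day 6 (log2 fold change 0.95 with SE 0.12 and adjusted p = 3.73e-05). Day 6 against day 3 did not pass for PFKFB4 (log2 fold change 0.36 with SE 0.12 and adjusted p = 0.0548), although it did without D0_1, D0_2 or D6_1 (adjusted p from 0.0133 to 0.0373). The ratio of PFKFB4 to PFKFB3 was 0.495 ± 0.0195, 0.547 ± 0.014 and 0.527 ± 0.0387 on the 3 days, and day 0 and day 6 overlapped.

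The phosphofructokinase genes, which encode the enzyme of the committed step, did not move alike. PFKL, the liver-type subunit, averaged 139 ± 15 CPM on day 0, 194 ± 2.96 on day 3 and 223 ± 23.7 on day 6 and rose on day 3 (log2 fold change 0.47 with SE 0.10 and adjusted p = 0.00255) and on day 6 (log2 fold change 0.68 with SE 0.10 and adjusted p = 0.000104). These values moved with the correction for base composition: after GC correction the log2 fold changes of PFKL were 0.05 (adjusted p = 0.668) and 0.26 (adjusted p = 0.0146). PFKM, the muscle-type subunit, averaged 66.7 ± 1.73 CPM on day 0, 81.7 ± 2.8 on day 3 and 94.8 ± 2.41 on day 6, and rose on day 3 (log2 fold change 0.29 with SE 0.07 and adjusted p = 0.00426) and on day 6 (log2 fold change 0.51 with SE 0.07 and adjusted p = 4.91e-05). Its rise from day 3 to day 6 (log2 fold change 0.21 with SE 0.07 and adjusted p = 0.0439) no longer passed without any 1 library other than D0_2 (adjusted p from 0.0591 to 0.188). PFKP, the platelet-type subunit, averaged 209.5 ± 7.29 CPM on day 0, 243 ± 6.99 on day 3 and 222 ± 12 on day 6. It was called higher on day 3 (log2 fold change 0.21 with SE 0.07 and adjusted p = 0.0305), a call lost without D0_1, D3_1, D3_2, D3_3 or D6_1 (adjusted p from 0.0598 to 0.121), and its sign turned after GC correction (-0.05, adjusted p = 0.411). On day 6 PFKP was at 0.08 (adjusted p = 0.347), and after GC correction it was lower (-0.23, adjusted p = 0.00149). The ratio of PFKP to PFKL per kilobase went from 0.868 ± 0.0858 to 0.719 ± 0.0247 and 0.571 ± 0.0325, with no overlap between days (exact permutation p = 0.1).

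Hexokinase, which traps glucose in the cell, is encoded by 2 members. HK1 was at 76.8, 71.5 and 82.3 CPM on day 0, 96.6, 99.9 and 99.6 CPM on day 3, and 94.2, 95.5 and 107 CPM on day 6. It rose on day 3 (log2 fold change 0.36 with SE 0.08 and adjusted p = 0.00352) and stood at the same level on day 6 (log2 fold change 0.36 with SE 0.08 and adjusted p = 0.00197; 0.15 after GC correction, adjusted p = 0.033). The day 3 value was also smaller after GC correction (log2 fold change 0.21, adjusted p = 0.0105). HK2, a HIF target, was at 224, 239 and 258 CPM on day 0, 231, 228 and 229 CPM on day 3, and 226, 265 and 269 CPM on day 6 and passed in no comparison. The ratio of HK2 to HK1 per kilobase was 2.18 ± 0.149 on day 0, 1.62 ± 0.0413 on day 3 and 1.79 ± 0.133 on day 6, lower on both later days in all libraries (exact permutation p = 0.1). GPI, the isomerase that follows, averaged 536 ± 23.2 CPM on day 0, 599.5 ± 27.5 on day 3 and 742 ± 97.5 on day 6 and rose by day 6 (log2 fold change 0.47 with SE 0.10 and adjusted p = 0.00128; 0.20 after GC correction, adjusted p = 0.0471). Its change from day 3 to day 6 (log2 fold change 0.31 with SE 0.09 and adjusted p = 0.0459) no longer passed without any 1 library other than D0_2 (adjusted p from 0.0513 to 0.167). TPI1, triose phosphate isomerase, averaged 1117 ± 151 CPM on day 0, 1138 ± 51.4 on day 3 and 1319 ± 82 on day 6. It missed the threshold on day 6 (log2 fold change 0.24 with SE 0.10 and adjusted p = 0.0594) and passed it without D0_2 (log2 fold change 0.35, adjusted p = 0.00049).

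In lower glycolysis, the pay-off phase, 5 of 6 genes rose by day 6, all by small amounts (83.3%; 28.9% of all genes), and 1 was called on day 3 (16.7%; 22.5% of all genes). GAPDH, often used as a reference gene, was at 3577, 4704 and 3736 CPM on day 0, 3923, 4115 and 4230.1 CPM on day 3, and 5181, 4938 and 5846 CPM on day 6. Every day 6 library lay above every earlier one, and D0_2 lay above all of day 3. GAPDH rose by day 6 (log2 fold change 0.41 with SE 0.11 and adjusted p = 0.00829, or 1.33-fold) with a log2 fold change of 0.03 on day 3. ENO1, the widespread enolase, was at 1792, 1997 and 1928 CPM on day 0, 1804, 1990.5 and 2105 CPM on day 3, and 2476, 2373 and 2772 CPM on day 6 and rose by day 6 (log2 fold change 0.41 with SE 0.09 and adjusted p = 0.00232), again with little change on day 3 (0.05). PGK1, phosphoglycerate kinase, averaged 362 ± 57.8 CPM on day 0, 364 ± 22.4 on day 3 and 475 ± 33.3 on day 6 and rose by day 6 (log2 fold change 0.39 with SE 0.11 and adjusted p = 0.00919), a call lost without D6_3 (adjusted p = 0.0532). From day 3 to day 6 the 3 genes were called higher at 0.38, 0.37 and 0.38. GAPDH and PGK1 lost that call without any 1 library of those days (adjusted p from 0.0541 to 0.149 for GAPDH and from 0.057 to 0.133 for PGK1), and ENO1 without D3_1, D3_2 or D6_3 (from 0.063 to 0.0845).

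ENO2, the neuron-type enolase and a neuroendocrine marker in clinical use, was at 352, 398 and 364 CPM on day 0, 439, 433 and 434 CPM on day 3, and 449, 469.8 and 513 CPM on day 6. It rose by day 6 (log2 fold change 0.36 with SE 0.08 and adjusted p = 0.00196; 0.17 after GC correction, adjusted p = 0.0288). Its day 3 call (log2 fold change 0.23 with SE 0.08 and adjusted p = 0.0336) was lost without D0_1, D0_3, D3_1, D3_2, D3_3 or D6_1 (adjusted p from 0.0547 to 0.11) and after GC correction (0.07, adjusted p = 0.374). PKM, pyruvate kinase, averaged 1158 ± 39.7 CPM on day 0, 1333 ± 32.6 on day 3 and 1549 ± 133 on day 6 and rose by day 6 (log2 fold change 0.42 with SE 0.08 and adjusted p = 0.000942; 0.15 after GC correction, adjusted p = 0.0298). On day 3 it did not pass (log2 fold change 0.20 with SE 0.08 and adjusted p = 0.0639) but did without D0_2 or D6_3 (adjusted p = 0.0222 and 0.0424). PGAM1, phosphoglycerate mutase, was at 253, 339 and 269 CPM on day 0, 235, 262 and 275 CPM on day 3, and 256, 255 and 280.4 CPM on day 6 and was the 1 gene of lower glycolysis not called in any comparison (log2 fold change -0.12 with SE 0.11 and adjusted p = 0.362 on day 6 against day 0). The counts do not separate the splice forms PKM1 and PKM2.

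LDHA and PDK1 direct pyruvate away from mitochondria, LDHA by making lactate and PDK1 by inhibiting the pyruvate dehydrogenase complex. LDHA was at 666, 1011 and 749 CPM on day 0, 626, 652 and 692 CPM on day 3, and 831, 868 and 897 CPM on day 6. D0_2 was the highest of all 9 libraries, and day 3 lay below D0_3. LDHA passed in no comparison, with log2 fold changes of -0.30 on day 3, 0.10 on day 6 and 0.40 between them (adjusted p = 0.0815, 0.546 and 0.0554). Without D0_2 it was higher on day 6 than on day 0 (log2 fold change 0.28, adjusted p = 0.00245), and without D0_1 lower on day 3 (adjusted p = 0.0157). The rise from day 3 to day 6 passed without D0_1 (adjusted p = 0.025) or D0_2 (log2 fold change 0.39, adjusted p = 0.000243). After GC correction LDHA was called higher on day 6 than on day 0 (log2 fold change 0.42, adjusted p = 0.00189) and than on day 3 (log2 fold change 0.48, adjusted p = 0.00289). LDHB, a lactate dehydrogenase gene outside the members, was more abundant, averaging 1550 CPM on day 0, 1311 on day 3 and 1196 on day 6. In the main fit LDHB was called lower on day 6 than on day 0 (log2 fold change -0.37 with SE 0.10 and adjusted p = 0.00842). Its day 3 change did not pass (log2 fold change -0.24, adjusted p = 0.0796). PDK1 was at 46.2, 56.4 and 53.3 CPM on day 0, 55.3, 51.8 and 51.1 CPM on day 3, and 61.6, 74.3 and 68.6 CPM on day 6. Day 0 and day 3 overlapped and day 6 lay above both. PDK1 rose by day 6 (log2 fold change 0.39 with SE 0.09 and adjusted p = 0.00383). That value was larger after GC correction (log2 fold change 0.64, adjusted p = 3.23e-05). GC correction also added a call on day 3 (log2 fold change 0.22, adjusted p = 0.0414, against 0.02 before). The rise of PDK1 from day 3 (log2 fold change 0.37 with SE 0.09 and adjusted p = 0.0177) no longer passed without D3_2, D3_3, D6_2 or D6_3 (adjusted p from 0.0617 to 0.0836).

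**Figure D4:**
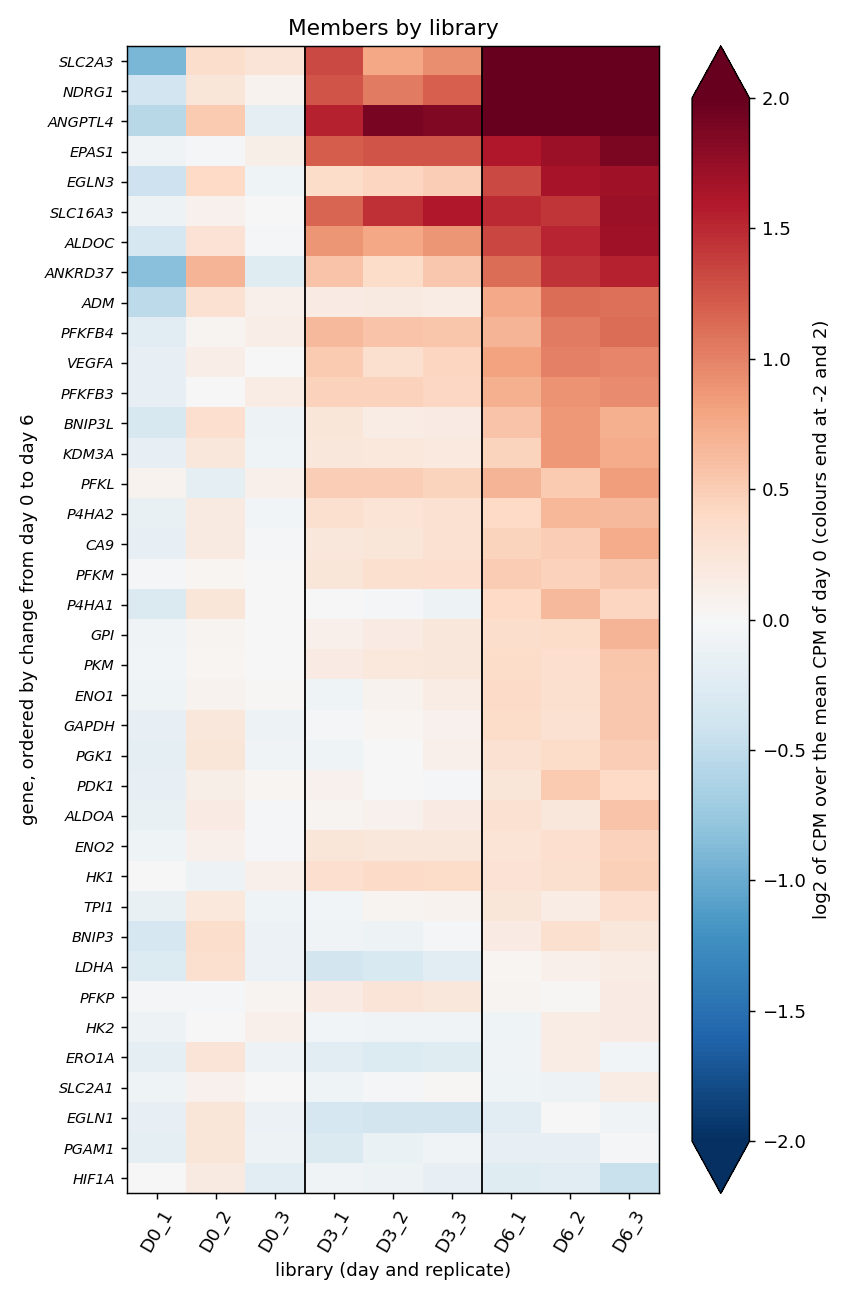
Log2 of the CPM of each of the 38 tested members (y axis, ordered by change from day 0 to day 6) over its mean CPM on day 0, in each of the 9 libraries (x axis). D0_2 is the redder of the day 0 columns for most genes, and colours end at 2, which SLC2A3, NDRG1 and ANGPTL4 pass on day 6.

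Per kilobase of median transcript, GAPDH had the highest day 0 level of the members (3132 CPM per kilobase), followed by ENO1 (1069), TPI1 (765), ALDOA (609) and PKM (504). Members that were abundant on day 0 changed little. The 8 members with at least 500 CPM on day 0 (CA9, GPI, ALDOA, TPI1, GAPDH, ENO1, PKM and LDHA) had log2 fold changes of 0.10 to 0.57 by day 6. The 9 members that rose at least 2-fold by day 6 (SLC2A3, NDRG1, ANGPTL4, EPAS1, EGLN3, SLC16A3, ALDOC, ANKRD37 and ADM) had day 0 means of 0.433 to 52.0 CPM. The other 21 had day 0 means of 15.1 to 371 CPM and log2 fold changes of -0.30 to 0.95.

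The letters before the RefSeq starts were compared with those calls as a description. In the 250 bases before the RefSeq start, 24 of 35 members with an entry held at least 1 ACGTG or GCGTG (68.6%), against 11763 of 27305 promoters of all genes (43.1%). For ACGTG alone the shares were 42.9% and 18.7%, and for GCGTG 40% and 31.9%. The promoters of all genes were not matched to the members for expression or base composition, and the difference in shares was not tested. Of the 24 members with an entry called higher on day 6, 17 held a match and 7 did not (EGLN3, P4HA2, SLC16A3, HK1, PFKM, PKM and PDK1). Of the 9 not called, 5 held a match. At least 3 matches were found in ANKRD37, ALDOC and PGK1, which were called higher, and in BNIP3, HK2 and LDHA, which were not. However, BNIP3 and LDHA were called higher on day 6 against day 0 without D0_2 (adjusted p = 9.99e-05 and 0.00245). The same held after GC correction (adjusted p = 0.0108 and 0.00189), while HK2 was called in neither. TPI1, which held no match, was also called higher without D0_2 (adjusted p = 0.00049).

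The same pathways hold other genes, of which 83 were listed, 82 were in the table and 70 were tested. On day 6 against day 0, 25 of them were called higher (35.7%; 28.9% of all genes) and 16 lower (22.9%; 25.7% of all genes). On day 3, 18 were called higher (25.7%; 22.5% of all genes) and 12 lower (17.1%; 18.1% of all genes), so the shares against day 0 lay near those of all genes. On day 6 against day 3, 18 were called higher (25.7%, against 11.5% of all genes) and 3 lower (4.29%, against 4.76% of all genes). Among 12 partners of oxygen sensing, 1 was called higher (8.33%; 28.9% of all genes) and 2 lower (16.7%; 25.7% of all genes) on day 6, with a median log2 fold change of -0.14. ARNT2, a dimer partner of HIF alpha subunits, averaged 7.95 ± 1.55 CPM on day 0, 9.51 ± 0.351 on day 3 and 39.5 ± 1.48 on day 6 and rose 4.94-fold by day 6 (log2 fold change 2.30 with SE 0.12 and adjusted p = 3.3e-08). CUL2 and ELOC, parts of the ubiquitin ligase that binds hydroxylated HIF alpha, fell by day 6 (log2 fold change -0.59 with SE 0.09 and adjusted p = 0.000267 for CUL2; log2 fold change -0.59 with SE 0.14 and adjusted p = 0.00414 for ELOC). The log2 fold changes after GC correction were -0.35 for CUL2 (adjusted p = 0.000247) and -0.10 for ELOC (adjusted p = 0.32). HIF3A, a further HIF alpha gene, averaged 2.94 ± 0.239 CPM on day 0, 2.12 ± 0.283 on day 3 and 2.51 ± 0.0137 on day 6, and its day 3 call (log2 fold change -0.48 with SE 0.17 and adjusted p = 0.0395) was lost without D0_1, D0_2, D3_1, D3_2, D3_3 or D6_1 (adjusted p from 0.0519 to 0.154). After GC correction HIF3A was called lower on day 3 (log2 fold change -0.82, adjusted p = 0.00205) and on day 6 (log2 fold change -0.61, adjusted p = 0.0066). The hydroxylase genes EGLN2 and HIF1AN averaged 102 ± 7.18 CPM on day 0, 115 ± 5.51 on day 3 and 108 ± 11.4 on day 6, and 42.1 ± 3.54 CPM on day 0, 40.6 ± 0.909 on day 3 and 40.7 ± 2.67 on day 6, and were not called. Both were lower on day 6 after GC correction (EGLN2 -0.34, adjusted p = 0.000595; HIF1AN -0.28, adjusted p = 0.0111).

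Of 27 other HIF targets, 17 were called higher on day 6 (63%; 28.9% of all genes) and 1 lower (3.7%, against 25.7% of all genes), with a median log2 fold change of 0.50. STC1, a secreted glycoprotein hormone, was at 1.8, 2.47 and 2.73 CPM on day 0, 14.2, 11.9 and 11.5 CPM on day 3, and 32.4, 37.5 and 37.3 CPM on day 6 and rose on day 3 (log2 fold change 2.45 with SE 0.15 and adjusted p = 6.35e-07) and day 6 (log2 fold change 3.96 with SE 0.15 and adjusted p = 2.62e-09). PLOD2, a lysyl hydroxylase of collagen, was at 2.25, 2.51 and 1.5 CPM on day 0, 4.73, 3.98 and 3.0 CPM on day 3, and 21, 24.1 and 19.5 CPM on day 6. It rose on day 3 (log2 fold change 0.90 with SE 0.21 and adjusted p = 0.00494) and day 6 (log2 fold change 3.35 with SE 0.19 and adjusted p = 5.95e-08), and most of the rise fell after day 3, as for SLC2A3. CXCR4, a chemokine receptor, averaged 6.26 ± 1.95 CPM on day 0, 13.5 ± 0.632 on day 3 and 33.7 ± 4.46 on day 6 and rose by day 6 (log2 fold change 2.43 with SE 0.18 and adjusted p = 4.32e-07). TFRC, the transferrin receptor, was the exception: it averaged 1205 ± 29.7 CPM on day 0, 834 ± 21.5 on day 3 and 682 ± 39.5 on day 6 and fell by day 6 (log2 fold change -0.82 with SE 0.07 and adjusted p = 2.7e-06).

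Subunits of the pyruvate dehydrogenase complex, which carries pyruvate into the citric acid cycle, were lower on day 6. Of 24 other genes of glycolysis, lactate and pyruvate, 7 were called higher (29.2%; 28.9% of all genes) and 10 lower (41.7%; 25.7% of all genes) on day 6. PDHA1 and DLAT, subunits of the pyruvate dehydrogenase complex, averaged 371 ± 31.4 CPM on day 0, 261 ± 3.2 on day 3 and 233 ± 8.58 on day 6, and 157 ± 13.2 CPM on day 0, 110.1 ± 2.54 on day 3 and 97 ± 4.13 on day 6. PDHA1 fell by day 6 (log2 fold change -0.67 with SE 0.08 and adjusted p = 2.1e-05), as did DLAT (log2 fold change -0.70 with SE 0.08 and adjusted p = 1.52e-05). The remaining listed subunits of that complex, singled out after their values were seen, were also called lower on day 6: PDHX (log2 fold change -0.58 with SE 0.10 and adjusted p = 0.000346), DLD (log2 fold change -0.69 with SE 0.09 and adjusted p = 4.87e-05) and PDHB (log2 fold change -0.25 with SE 0.07 and adjusted p = 0.0113). After GC correction PDHX and DLD stayed lower (-0.31 each, adjusted p = 0.00116 and 8.72e-05), and PDHB turned to 0.10 (adjusted p = 0.109). PDK2, an inhibitory kinase of the complex, averaged 8.86 ± 0.588 CPM on day 0, 13.7 ± 0.396 on day 3 and 18.1 ± 1.25 on day 6 and rose by day 6 (log2 fold change 1.03 with SE 0.09 and adjusted p = 2.64e-06). TXNIP, which limits glucose uptake, averaged 85 ± 7.63 CPM on day 0, 115 ± 6.85 on day 3 and 154 ± 10.0 on day 6 and rose (log2 fold change 0.86 with SE 0.09 and adjusted p = 7.14e-06), as did the mitochondrial gluconeogenic gene PCK2 (log2 fold change 1.66 with SE 0.11 and adjusted p = 2.52e-07). TIGAR, a phosphatase that can lower glycolytic flux, fell (log2 fold change -0.66 with SE 0.08 and adjusted p = 2.33e-05).

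The pentose phosphate pathway branches from glycolysis at glucose 6-phosphate. Of its 7 genes none was called higher on day 6 by edgeR, at an unadjusted p under 0.05, by DESeq2 or by limma-voom, where edgeR called 28.9% of all genes. Of the 7, 3 were called lower (42.9%; 25.7% of all genes). RPE fell by day 6 (log2 fold change -0.53 with SE 0.10 and adjusted p = 0.000637), as did RPIA (log2 fold change -0.41 with SE 0.11 and adjusted p = 0.00901), both being enzymes of its non-oxidative arm. After GC correction the log2 fold change was -0.24 for RPE (adjusted p = 0.00221) and -0.26 for RPIA (adjusted p = 0.0229). PGD, of its oxidative arm, was marginal (log2 fold change -0.19 with SE 0.08 and adjusted p = 0.0488), and its call was lost without D0_3, D3_1, D3_2, D3_3, D6_2 or D6_3 (adjusted p from 0.0662 to 0.152).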

How the data were processed

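RNA of 9 TYUC-1 libraries was measured by poly-A RNA sequencing. The authors deposited 1 table of estimated counts per gene symbol, whole numbers that were not scaled to a common total. Per the submitters' processing notes, the tools were kallisto 0.44.0, bcl2fastq 2.19 and DESeq2 in an unnamed version, and the builds GRCh38, GRCm38 and hg38; the role of each is not given in the sources used here. How transcripts were summed to genes and whether strand was used are also not given there, so counts of near-identical copies, overlapping genes and antisense genes are uncertain. Summed over all 9 libraries, processed pseudogenes named after a member held at most 4.38% of the counts of gene and pseudogenes together (SLC2A3). This sum does not give their share on day 0, where SLC2A3 held 7 to 13 counts a library.

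The estimated counts were rounded, filtered with filterByExpr (minimum count 10), scaled by TMM and tested with the quasi-likelihood test of edgeR 4.0.16 (R 4.3.3), with a mean per day over all 9 libraries. P-values were adjusted by Benjamini-Hochberg over 15345 genes, with a threshold of 0.05. Libraries held 21638874 to 31235055 counts, so 3 counts, the limit that a count of 0 allows, were 0.098 to 0.141 CPM, which covers counting error only. Ratios of paralogs used counts per median GENCODE 29 transcript length and an exact two-sided permutation test. Fitting was tested on simulated data. Promoter sequences are RefSeq's on GRCh38.p14.

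The members and lists were chosen with earlier results of these data known. All members are accounted for, and of each list of further genes up to 3 called higher and 3 called lower with the lowest p on day 6 are named, besides ARNT2, HIF3A, EGLN2 and HIF1AN. PDHX, DLD, PDHB, PFKFB2, SLC16A1 and LDHB were singled out after their values were seen. For PFKFB2, SLC16A1 and LDHB only the main fit is given. Alternatives changed the scaling (median-ratio size factors, raw library size, or mitochondrial and the 20 most abundant genes removed first), the filter (none, or 5 CPM on average), the test (DESeq2 1.42.0 or limma-voom from limma 3.58.1), the call (a 2-fold minimum or an adjusted p under 0.01) and the samples (2 days at a time, each library left out, or the replicate number as a block). Others added pseudogene counts or removed a trend with GC content and transcript length (GC correction). A listed cell type marker is not reported here.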

Additional observations from a re-analysis of the deposited data

How the results depend on the processing

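Of the members called on day 3, day 6 and between these days, 8 of 16, 26 of 29 and 9 of 19 kept their call in every alternative other than the 2-fold minimum and the adjusted p under 0.01. The members called higher were 5, 9 and 3 with a 2-fold minimum. On day 6 against day 3 they were 30 in a fit of only the 2 days compared and 9 at an adjusted p under 0.01. The counts over all genes moved the same way, with 2507 and 1159 called higher in these settings and 1766 in the main fit. Leaving out 1 library gave 11 to 21 members higher on day 3, 26 to 31 on day 6 and 9 to 30 on day 6 against day 3, the last being 30 without D0_2, 10 without D3_1, D3_3 or D6_2, and 9 without D3_2 or D6_3. Over all genes, the same fits called 2807 to 3919, 3901 to 4958 and 1258 to 2591 higher in the 3 comparisons. Members called lower on day 3 were 2 without a filter on low counts, with DESeq2 and after GC correction, and 0 with a 2-fold minimum or an adjusted p under 0.01. Leaving out 1 library gave 0 to 3, with 3 without D0_1 (EGLN1, ERO1A and LDHA) and 0 without D3_2 or D3_3. On day 6 against day 0 they were 0 with raw library sizes, with a filter at 5 CPM, with only the 2 days compared, a 2-fold minimum or an adjusted p under 0.01, and 2 after GC correction (SLC2A1 and PFKP). Leaving out 1 library gave 0 to 1, with 0 without D0_1 or D6_3. On day 6 against day 3, 1 was called lower in a fit of only the 2 days compared (HIF1A) and 1 after GC correction (PFKP), and leaving out 1 library gave 0 to 0. Over all genes, 731 were called lower there in the main fit, 1824 in the fit of 2 days and 1723 after GC correction. With 1 library left out, 1846 to 3370, 3367 to 4538 and 348 to 2090 of all genes were called lower in the 3 comparisons. The cause of these changes was not tested.

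GC correction, which reached 98.9% of genes tested, turned the direction of 11 members on day 3, 2 on day 6 and 2 between these days. Of these members, PFKP on day 3 had been called. Its values were -0.051 on day 3 and -0.23 on day 6, and among the other genes named those of EGLN2 (-0.21 and -0.34) and PDHB (0.017 and 0.10) turned on both days and that of ELOC on day 3 (0.021). Calls of 6, 2 and 0 members were lost and those of 4, 4 and 8 gained. Those gained between day 3 and day 6 were rises of CA9, ERO1A, PFKFB4, ALDOA, TPI1, PKM and LDHA (adjusted p from 0.00289 to 0.0487) and a fall of PFKP (0.018). The median of the members was then 0.13 on day 3, 0.43 on day 6 and 0.35 between these days, and the log2 fold change of 12 of the 29 members called on day 6 moved by over 1.5 times. Library size alone moved the median of all genes by 0.08, 0.12 and 0.04 in the 3 comparisons, and 69.2%, 66.6% and 78.1% of all calls were then rises, against 55.3%, 53% and 70.7%. After GC correction that share was 58.1% on day 6 against day 3. Where no call was made, estimates changed sign in 36, 17 and 14 member fits.

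Whether the replicate numbers pair the libraries could not be settled with 3 libraries a day. Deviations of same-numbered libraries from their day's mean correlated at -0.15 to 0.21 over 11041 genes. Those of differently numbered libraries correlated at -0.26 to 0.24, and not every library correlated best with its own number. With the replicate number as a block, 16, 28 and 19 members were called higher and 1, 1 and 0 lower. Of all genes, 3373, 4394 and 1643 were then called higher and 2740, 3911 and 650 lower. Depth limits CA12 and the day 0 level of SLC2A3.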
